A study of Mus musculus with 12 samples.

Results

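The mRNAs of the 82 cytosolic ribosomal protein genes, 33 of the small and 49 of the large subunit, were followed in mouse C8-D1A cells under 3 ways of acidification. They were chosen by name, as symbols made of Rpl or Rps and a digit together with Rplp0, Rplp1, Rplp2 and Rpsa, and by a level of at least 1 TPM (transcript shares scaled to a fixed total per library) in at least 3 of 12 libraries. Pseudogenes, the Rps6k kinases and Rps19bp1 were left out, which gave 82 of the 21959 genes listed. The symbols Rpl3l, Rpl39l and Rpl10l met the name rule but not the level, with means of 0.15, 0.13 and 0 TPM over the libraries.

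C8-D1A is an established line derived from mouse astrocytes, and all groups come from this 1 line. Each group has 3 libraries of total RNA, collected 24 h after the start of the treatment. The groups are cells in medium with 0.2 g/L NaHCO3 (low-NaHCO3), cells given 20 mM lactic acid, cells under 15% CO2, and untreated control cells kept at 37 °C under 5% CO2. The labels used here name neither the pH reached nor separate cultures behind the 3 libraries of a group, so the p-values may measure technical spread only.

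The ribosome translates mRNA into protein. Its small subunit holds the mRNA and decodes it, and its large subunit joins the amino acids. In mammals nearly every ribosomal protein is encoded by 1 active gene, the proteins are needed in about equal numbers, and their mRNAs begin with a C followed by a stretch of pyrimidines, the 5′ terminal oligopyrimidine motif. Through this motif the kinase complex mTORC1 and the RNA-binding protein Larp1 control together how far these mRNAs are translated and how stable they are. An mRNA level therefore does not give the amount of ribosome made.

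Start regions of 5 members that the results below turn on are shown to let this motif be seen. Each line gives the 50 bases before the annotated start and the first 20 bases of the transcript, on the strand of the gene, from RefSeq's GRCm38.p6 promoters. Capitals mark the longest run of at least 7 bases that opens with C and holds only C and T, where such a run touched the 20 bases on either side of the start. These 5 genes were chosen after their values were seen.
Rps6: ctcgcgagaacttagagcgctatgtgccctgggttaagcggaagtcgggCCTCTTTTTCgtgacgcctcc
Rps10: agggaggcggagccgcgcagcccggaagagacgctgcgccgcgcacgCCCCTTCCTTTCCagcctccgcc
Rpl22l1: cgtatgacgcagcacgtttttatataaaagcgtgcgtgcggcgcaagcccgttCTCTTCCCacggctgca
Rpl35: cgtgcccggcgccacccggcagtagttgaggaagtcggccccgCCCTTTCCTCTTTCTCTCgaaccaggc
Rpl7l1: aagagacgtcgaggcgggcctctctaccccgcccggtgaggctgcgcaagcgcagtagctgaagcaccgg
They lie at chr4:86857348-86857417 on the minus strand (Rps6), chr17:27635225-27635294 on the minus strand (Rps10), chr3:28805458-28805527 on the plus strand (Rpl22l1), chr2:39005112-39005181 on the minus strand (Rpl35) and chr17:46782637-46782706 on the minus strand (Rpl7l1).

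A promoter entry was found for 62 of the 82 members. Of these, 33 held such a run, or 53.2%, against 23.4% of the 9422 tested genes with an entry. The run had a median length of 10 bases. A C at the annotated start itself, followed by 4 bases that are each C or T, stood in 13 of the 62, or 21.0%, against 2.36% of the tested genes. In the 300 bases of an entry the letters CCGGAA, the core of sites for ETS factors, were present on one or the other strand in 33 of the 62, or 53.2%, against 29.1% of the tested genes. TATAAA at 40 to 20 bases before the start was present in 1 of 62 members, or 1.61%, near the 1.14% of the tested genes. Rpl7l1 was among the members with an entry but no such run near the annotated start, as were Rplp0, Rpl9 and Rpl22. These letters describe the annotated windows only, and annotated starts may lie some bases from the true ones. Where a gene had several entries, only that with the lowest genome coordinate was read. A run at another annotated start of the gene would thus be missed.

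Levels in TPM, a unit already divided by transcript length, covered a wide range. Rplp0, a scaffold of the stalk on the large subunit, was the highest with a mean of 4819 TPM over 12 libraries, followed by Rps15 with 4797, Rps3a1 with 4221, Rplp1 with 3798 and Rps2 with 3567 TPM. The lowest were Rpl36al with 2.11, Rpl24 with 3.53, Rps10 with 13.5, Rpl22l1 with 32.5 and Rpl13a with 46.4 TPM. Of these 5, all but Rpl22l1 are among the 5 members whose GENCODE M21 gene carries a tag for overlapping loci, the fifth being Rpl19 at 577 TPM. The median level was 13.5 TPM for the 5 members with the tag and 818 TPM for the others. The counting method is not given in the sources used here, so whether reads in overlapping or near-identical genes were lost was not tested. This bears most on the tagged members, on the near-identical pair Rps27 and Rps27rt, and on the many genes with processed pseudogenes.

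Several libraries stood apart within their groups, which bears on every comparison below. Control 1 held 58393 TPM of ribosomal protein mRNA in all, against 92864 in control 2 and 89343 in control 3. It was also the highest of the 12 libraries for all 39 markers of neurons, oligodendrocytes, microglia, vessel cells, mature astrocytes and red blood cells examined. Its neuron markers summed to 2222 TPM, against 92.2 to 145 TPM in the other 11 libraries, and its 4 markers of the C8-D1A line summed to 1831 TPM, against 2509 to 4488. In those 11 libraries the astrocyte markers Gfap, Aqp4, Slc1a2 and Slc1a3 were at 1.19 TPM or less and S100b was at 33.5 to 49.8 TPM, so the label of astrocyte rests on few of its defining genes. Lactic acid 3 and 15% CO2 3 were the lowest of their groups in ribosomal protein mRNA and the highest in mitochondrially encoded RNA. Counts of calls against control are given with and without control 1, as are the changes of most genes described, and in bulk RNA fewer cells of a type and less RNA per cell cannot be told apart.

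Ribosomal protein mRNA made up a larger share of the RNA in low-NaHCO3 medium than in any other group. The summed level of the 82 genes was 114907, 115418 and 126112 TPM in low-NaHCO3 libraries, 96839, 94135 and 57901 TPM in lactic acid libraries, 78629, 88113 and 65593 TPM in 15% CO2 libraries, and 58393, 92864 and 89343 TPM in controls. All 3 low-NaHCO3 libraries thus lay above the other 9, while the other 3 groups overlapped. The mean was 11.9 ± 0.633% of all TPM in low-NaHCO3 medium and 8.02 ± 1.90% in controls (SD, n = 3 each), a ratio of 1.48 with an exact two-sided permutation p of 0.1, the smallest that 3 libraries against 3 allow. Without control 1 the ratio was 1.30 (exact p = 0.2, n = 3 and 2). The groups did not overlap there either, and every comparison of sums of 3 libraries with 2 that lacked overlap gave this same p.

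Mitochondrially encoded RNA lay the other way, at 10.4, 10.4 and 10.9% of all TPM in low-NaHCO3 libraries, 15.9, 16.4 and 27.8% with lactic acid, 20.4, 15.6 and 24.8% under 15% CO2, and 19.7, 15.6 and 16.3% in controls. Since TPM are shares, part of a rise of one class can come from a fall of another. As a share of the TPM that is not mitochondrial, ribosomal protein mRNA was 13.3 ± 0.747% in low-NaHCO3 medium and 9.65 ± 2.07% in controls (SD, n = 3 each), a ratio of 1.38, or 1.23 without control 1. The ratio of summed small over large subunit TPM differed between groups by less than the spread within them, with 0.814 ± 0.00582 in low-NaHCO3 medium, 0.812 ± 0.0152 with lactic acid, 0.820 ± 0.0127 under 15% CO2 and 0.813 ± 0.0148 in controls (SD, n = 3 each).

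**Figure D1:**
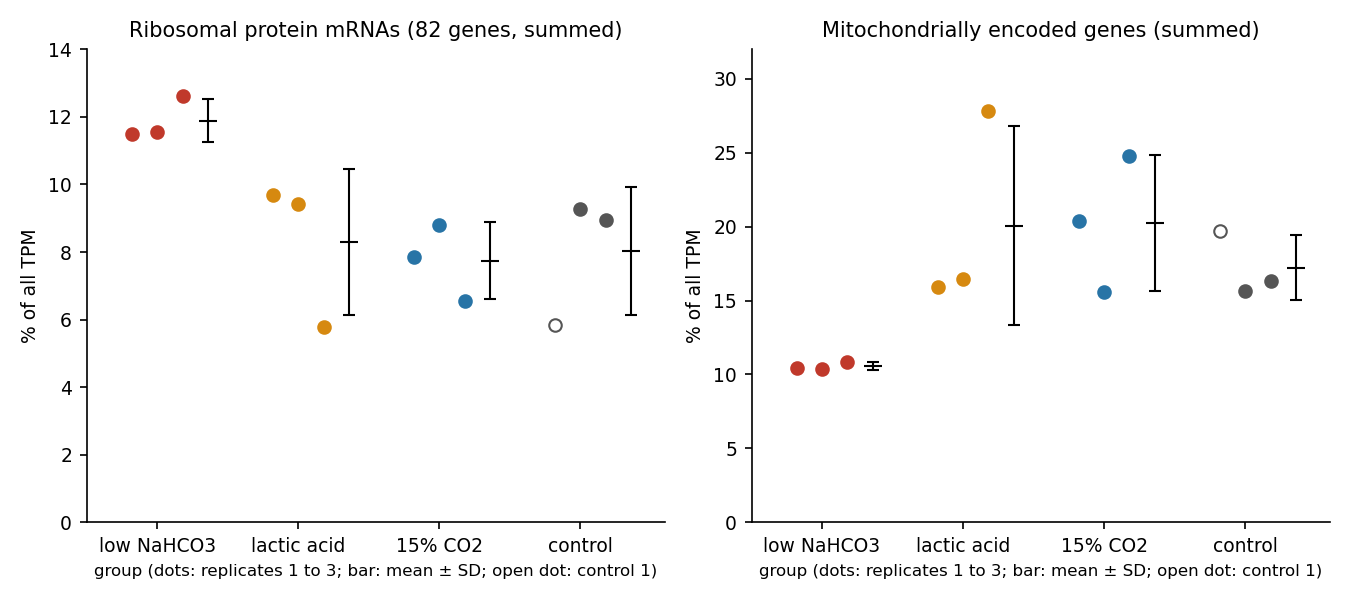
Summed TPM of the 82 ribosomal protein mRNAs (left) and of mitochondrially encoded genes (right), each as percent of all TPM of a library, by group. Dots are libraries, the open dot is control 1, and bars are the mean ± SD of 3 libraries. The low-NaHCO3 libraries lie at 11.5 to 12.6% on the left, above the other 9, and at 10.4 to 10.9% on the right, below them.

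In low-NaHCO3 medium most ribosomal protein mRNAs were higher than in control cells, and by similar amounts. The median log2 change was 0.63, with quartiles of 0.43 and 0.75, against −0.19 over the 11996 genes tested. In a limma fit of all genes on log2(TPM + 1), adjusted by Benjamini-Hochberg over all of them at 0.05, 37 of 82 members rose, or 45.1%, against 20.5% of all genes. The 1 member that fell was Rpl7l1, against 35.8% of all genes. Every low-NaHCO3 library lay above every control for 68 of 82 members, or 82.9%, against 24.3% of all genes. Members moved together from library to library, and their median had a between-library SD of 0.32 (log2, pooled over groups). This and later counts of members are therefore not counts of separate observations. The changes of 59 of the 82 members lay within 0.25 of their median.

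The number of calls depended on which libraries were in the fit. Without control 1 the median change was 0.41 (all genes −0.18), 19 of 82 members rose, or 23.2%, against 23.1% of all genes, and 1 fell, against 41.5% of all genes. That share of members called is the share of genes in general. For 68 members, or 82.9%, every low-NaHCO3 library lay above both remaining controls, against 30.8% of all genes, and these members too moved together between libraries. Of the 37 and the 19 members, 18 were called in both fits. Without control 1, lactic acid 3 and 15% CO2 3 together, a choice made after seeing the data, 65 members rose, or 79.3%, against 26.2% of all genes. The 38 calls in both directions became 17, 18 and 17 when low-NaHCO3 1, 2 or 3 was left out, and 57 without lactic acid 3. The share of all genes called in these fits is not set beside them. Median-of-ratios scaling in place of TPM as deposited moved the median of all genes to −0.01, that of the members to 0.83 and the members that rose to 64; over all genes 3562 rose and 3245 fell under it, against 2454 and 4289 on deposited TPM.

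**Figure D2:**
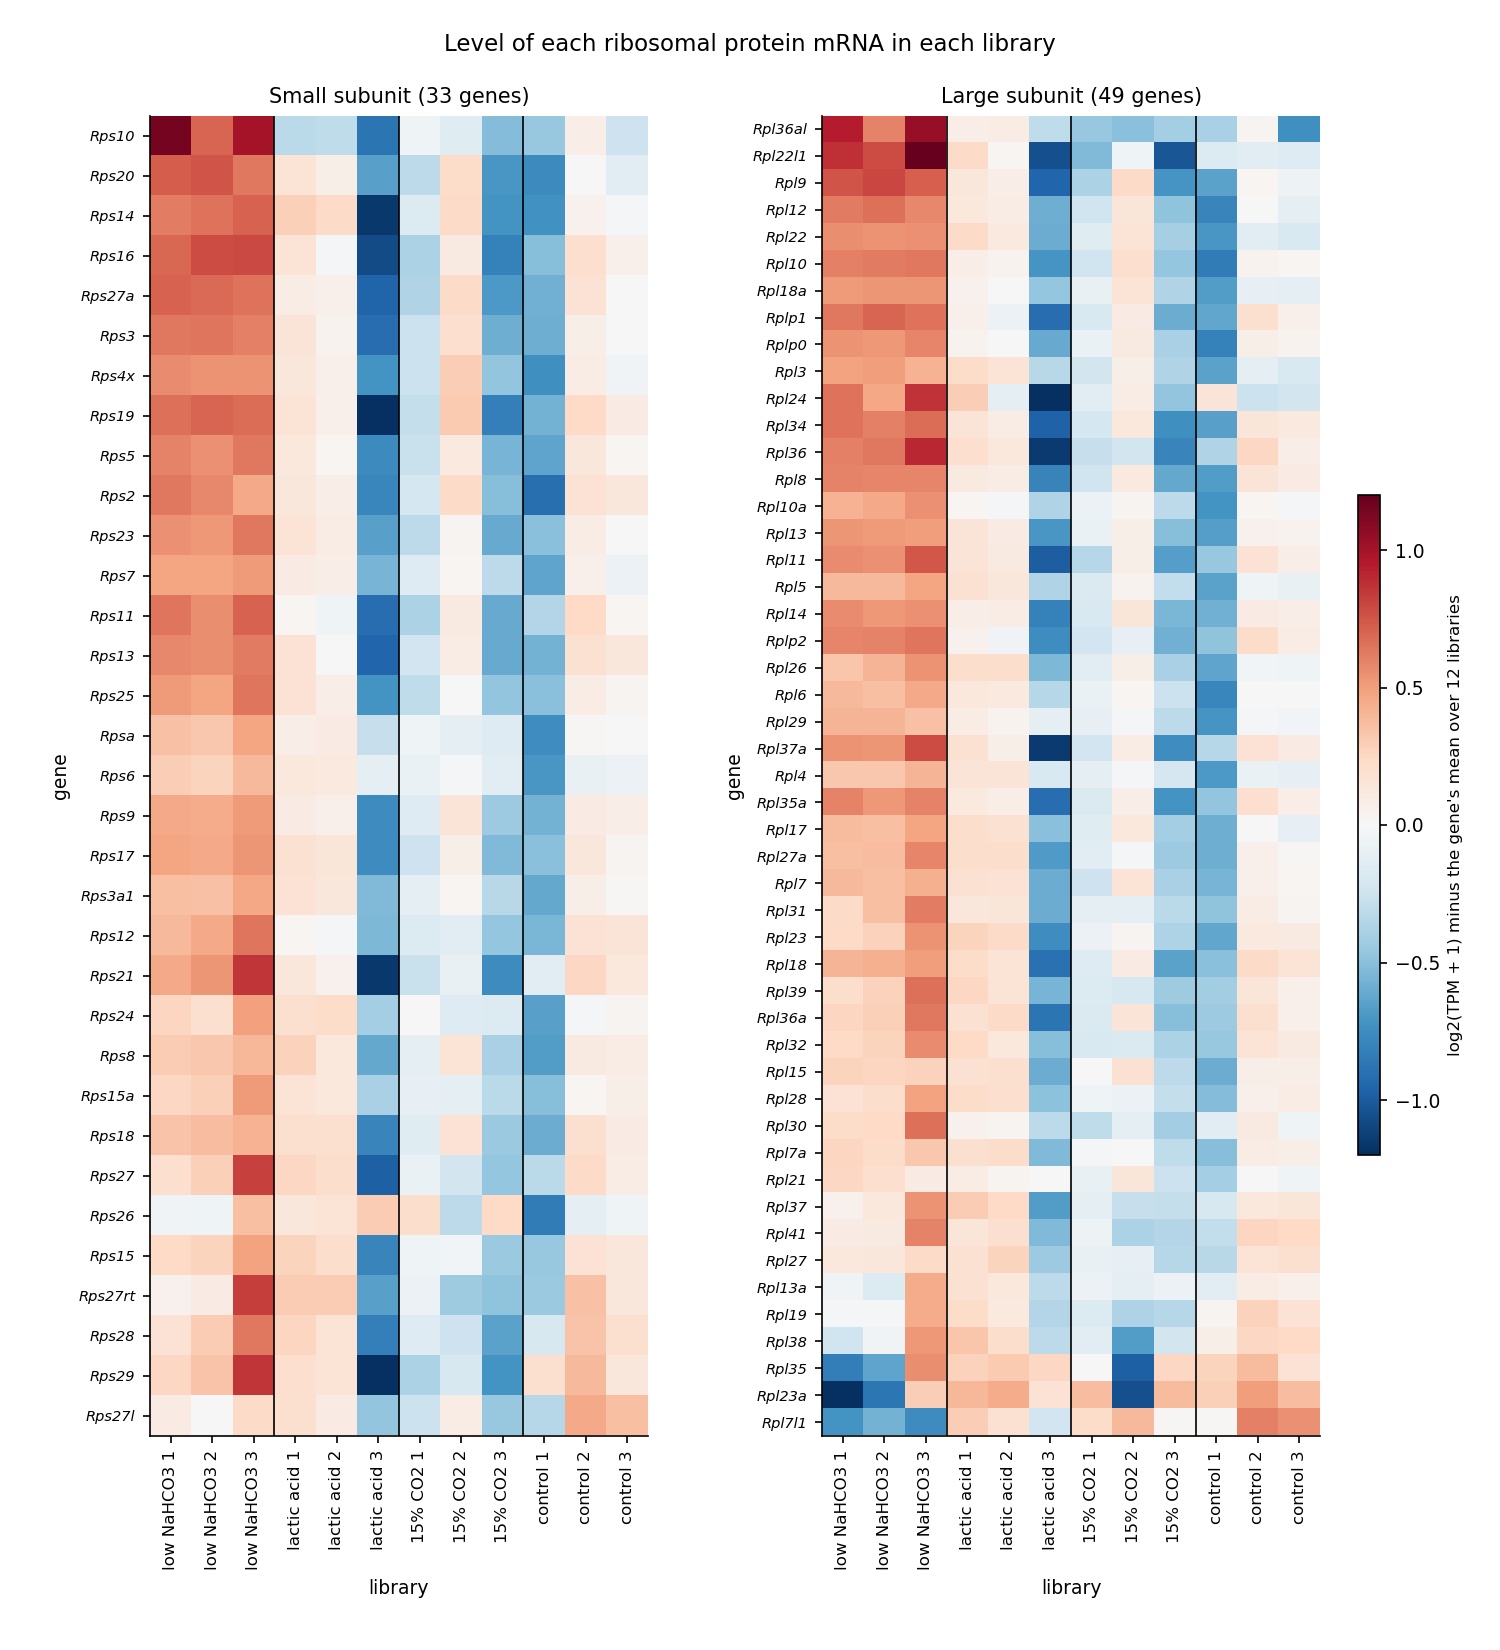
Level of each of the 82 mRNAs in each library, as log2(TPM + 1) minus the mean of that gene over 12 libraries, for the 33 small subunit (left) and 49 large subunit genes (right), sorted by the change in low-NaHCO3 medium against control. The low-NaHCO3 columns are red for most genes, control 1, lactic acid 3 and 15% CO2 3 are blue for most, and Rpl7l1 at the bottom right runs the other way.

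The median changes of both subunits were alike. Of the 33 small subunit genes 16 rose (48.5%), with a median log2 change of 0.60, and of the 49 large subunit genes 21 rose (42.9%) and 1 fell, with a median of 0.64, where 20.5% of all genes rose. Without control 1, 5 of 33 rose (15.2%, median 0.40), and 14 of 49 rose (28.6%) and 1 fell (median 0.43), where 23.1% of all genes rose. The largest rises by rule were those of Rpl36al, Rps10, Rpl22l1, Rps20 and Rpl9, and each of these 5 also rose without control 1.

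Rps10, a protein near the mRNA entry side of the small subunit, had 28.4, 20.5 and 25.4 TPM in low-NaHCO3 libraries and 8.64, 13.0 and 10.1 TPM in controls. Its log2 change was 1.16 ± 0.20 (SE of the fit, adjusted p = 0.000711), and 1.03 ± 0.21 without control 1. With 9.56, 9.73 and 6.21 TPM under lactic acid and 11.8, 10.9 and 8.20 TPM under 15% CO2, the low-NaHCO3 libraries were the only 3 above 20 TPM. As one of the tagged members its absolute level is uncertain, and whether lost reads bear on its change was not tested.

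Rps20, an RNA-binding protein of the small subunit head, had 432, 441 and 406 TPM in low-NaHCO3 libraries and 153, 260 and 237 TPM in controls, a log2 change of 1.01 ± 0.27 (adjusted p = 0.00900). Rpl9, a protein at the base of the stalk, had 900, 929 and 877 TPM in low-NaHCO3 libraries and 342, 541 and 509 TPM in controls, a log2 change of 0.99 ± 0.31 (adjusted p = 0.0186). The groups did not overlap for either gene. Without control 1 the changes were 0.78 ± 0.26 and 0.78 ± 0.31.

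The stalk that recruits elongation factors to the ribosome is built on Rplp0 by dimers of Rplp1 and Rplp2. All 3 genes rose in the fit of 12 libraries, with log2 changes of 0.78 for Rplp0, 0.79 for Rplp1 and 0.67 for Rplp2. Rplp0 had 6732, 6657 and 6933 TPM in low-NaHCO3 libraries and 2634, 4859 and 4754 TPM in controls. Without control 1 the changes were 0.49 ± 0.21, 0.54 ± 0.27 and 0.46 ± 0.21 and none passed the threshold, the adjusted p of limma being 0.0537, 0.102 and 0.0727.

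Rpl5 and Rpl11 bind the 5S ribosomal RNA and, when ribosome assembly is disturbed, can hold back Mdm2, the ligase that degrades p53. Rpl5 had 1024, 1023 and 1085 TPM in low-NaHCO3 libraries and 502, 753 and 734 TPM in controls, and rose, with a log2 change of 0.68 ± 0.18 (adjusted p = 0.00955), or 0.49 ± 0.15 without control 1, where it still passed. Rpl11 had 839, 825 and 946 TPM in low-NaHCO3 libraries and 413, 636 and 598 TPM in controls, with a log2 change of 0.69 ± 0.30 that did not pass (adjusted p = 0.0679). Both partners were thus higher in every low-NaHCO3 library, with closely similar changes and unequal spread.

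Rps6, the small subunit protein that S6 kinases phosphorylate downstream of mTORC1, had 2786, 2733 and 2978 TPM in low-NaHCO3 libraries, 2479, 2464 and 2103 TPM under lactic acid, 2146, 2249 and 2064 TPM under 15% CO2, and 1398, 2136 and 2159 TPM in controls. In low-NaHCO3 medium its log2 change against control was 0.60 ± 0.18 (adjusted p = 0.0141), or 0.40 ± 0.11 with control 1 left out (adjusted p = 0.00795). Among the other members with known contacts to p53 regulators or signalling, Rps3 (0.80 ± 0.29), Rps7 (0.70 ± 0.21) and Rpl26 (0.66 ± 0.23) rose, and Rpl23, with 0.49 ± 0.28, did not pass. Of these 5 genes only Rps6 and Rps7 passed without control 1.

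Rps27a, made as a fusion of a small subunit protein with ubiquitin, had 1459, 1423 and 1397 TPM in low-NaHCO3 libraries and 598, 1001 and 886 TPM in controls. Its log2 change of 0.82 ± 0.31 passed (adjusted p = 0.0423), and 0.60 ± 0.31 without control 1 did not. Of 22 members whose human counterparts are mutated in Diamond-Blackfan anaemia, a failure of red cell production, 8 rose (36.4%) and none fell (median 0.56), where 20.5% of all genes rose. Without control 1, 4 rose (18.2%), where 23.1% of all genes did. Of 26 members that carry small nucleolar RNAs in their introns, 15 rose (57.7%) and none fell (median 0.63), and without control 1, 7 rose (26.9%). Without control 1 both shares were thus near that of genes in general.

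**Figure D3:**
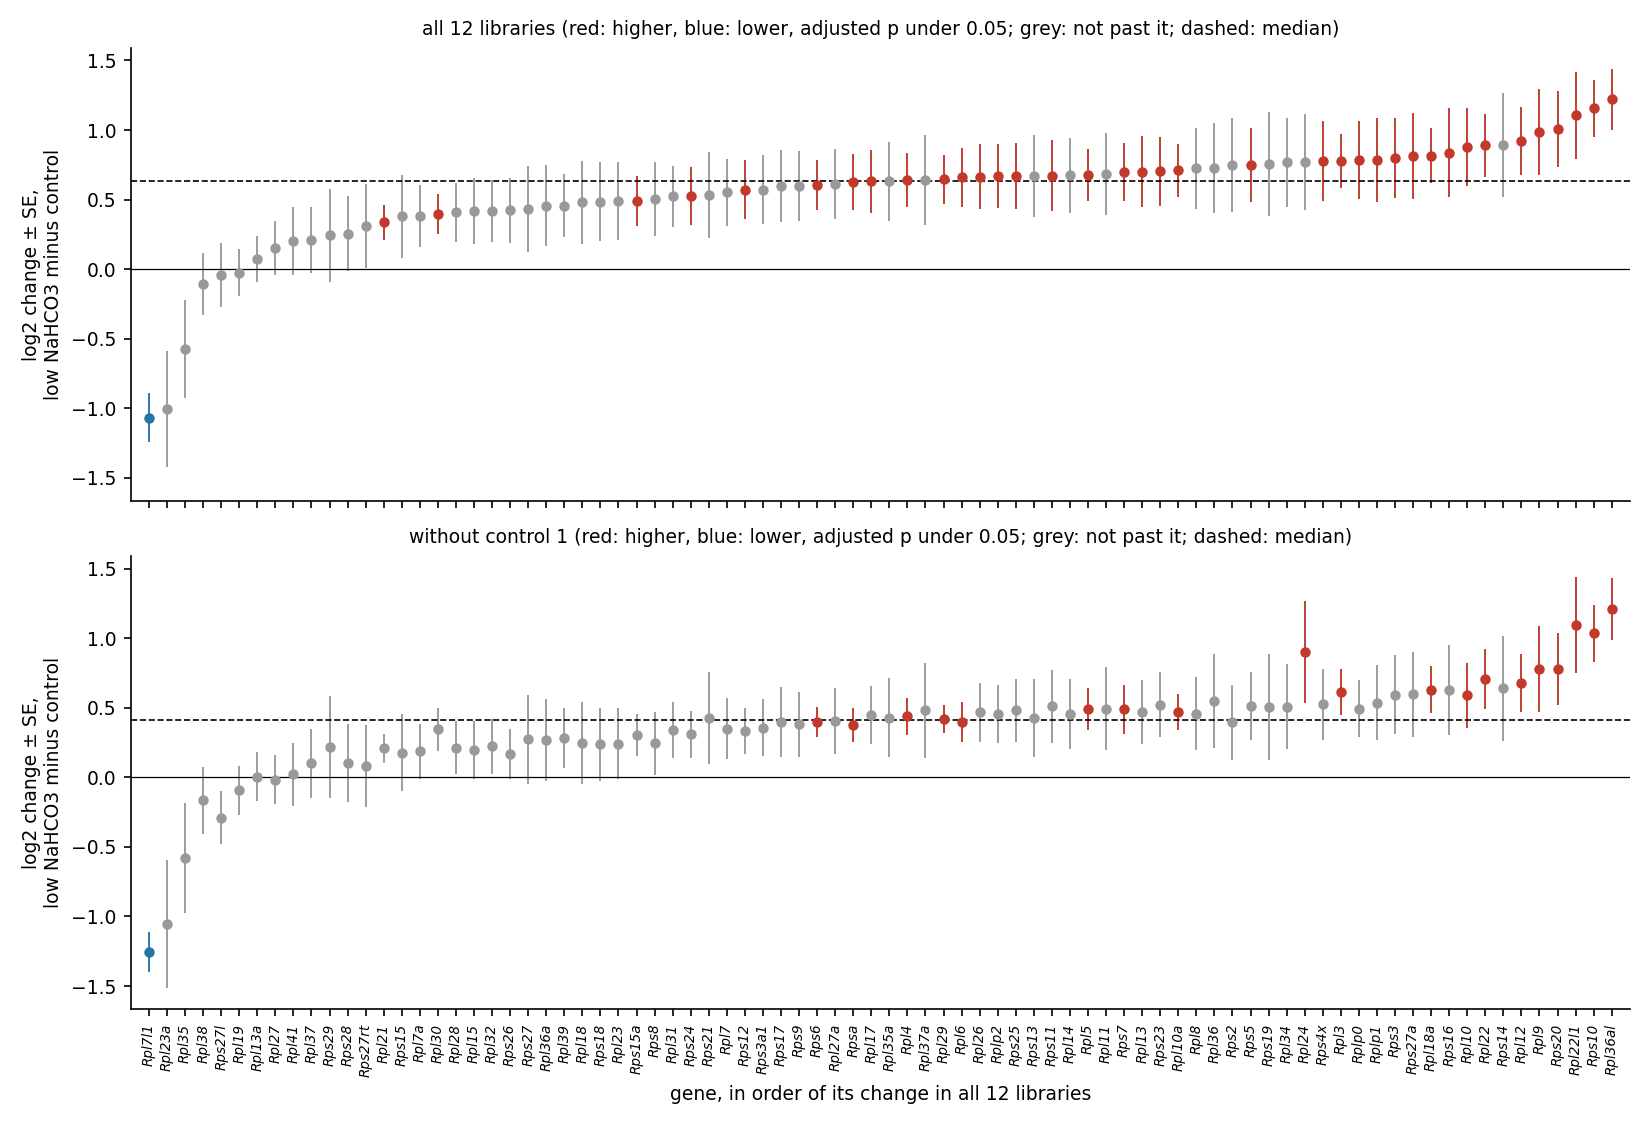
Log2 change ± SE of each of the 82 genes, low-NaHCO3 medium minus control, from all 12 libraries (top) and without control 1 (bottom), in the same order. Red and blue points passed an adjusted p of 0.05. The dashed median lies at 0.63 in the top panel and at 0.41 in the bottom panel, and Rpl7l1 is the 1 blue point in each.

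A few members departed from the common change. Rpl7l1, a paralog of Rpl7 found in assembling large subunits, had 57.5, 63.8 and 56.1 TPM in low-NaHCO3 libraries, 117, 108 and 81.2 TPM under lactic acid, 111, 125 and 96.1 TPM under 15% CO2, and 96.1, 145 and 140 TPM in controls. All 3 low-NaHCO3 libraries lay below the other 9. It fell by 1.07 ± 0.18 on the log2 scale (adjusted p = 0.000451), or by 1.26 ± 0.15 without control 1 (adjusted p = 2.19e-05), and passed under each alternative tried. Its parent Rpl7 had 1580, 1553 and 1626 TPM in low-NaHCO3 libraries and 817, 1259 and 1230 TPM in controls.

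As a share of its parent, Rpl7l1 was 3.73 ± 0.340% in low-NaHCO3 medium and 11.6 ± 0.206% in controls (SD, n = 3 each, exact two-sided permutation p = 0.1, the smallest possible). Rpl22l1 was 9.21, 8.69 and 11.8% of Rpl22 in low-NaHCO3 libraries and 10.5, 7.29 and 7.39% in controls (exact p = 0.4), so that the groups overlapped only through control 1. Rpl36al, at 4.93 TPM or less in every library, was 0.710, 0.510 and 0.595% of Rpl36a in low-NaHCO3 libraries and 0.303, 0.318 and 0.131% in controls (exact p = 0.1). Rps27l, a p53 target in mammals, was 27.5, 24.4 and 19.7% of Rps27 in low-NaHCO3 libraries and 29.1, 34.4 and 35.5% in controls (exact p = 0.1). Rps27rt was 22.3, 21.7 and 24.9% of Rps27 in low-NaHCO3 libraries and 22.6, 26.9 and 25.6% in controls, which likewise overlapped only through control 1 (exact p = 0.2). These are 5 ratios with unadjusted p.

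Rpl22l1, the paralog of Rpl22, had 54.1, 50.5 and 68.4 TPM in low-NaHCO3 libraries, 34.1, 29.5 and 13.4 TPM under lactic acid, 19.8, 27.9 and 13.8 TPM under 15% CO2, and 25.8, 26.5 and 25.9 TPM in controls. The 3 controls were nearly equal, control 1 among them, and lay below all low-NaHCO3 libraries. The log2 change was 1.11 ± 0.31 (adjusted p = 0.0112), and 1.10 ± 0.35 without control 1. Rpl22 itself, with 588, 581 and 582 TPM in low-NaHCO3 libraries and 245, 363 and 350 TPM in controls, rose by 0.89 ± 0.23 (adjusted p = 0.00646), or by 0.71 ± 0.22 without control 1.

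Rpl23a and Rpl35, neighbours around the exit of the tunnel through which new proteins leave the large subunit, split the low-NaHCO3 group. Rpl23a had 64.0, 86.8 and 196 TPM in low-NaHCO3 libraries, 209, 217 and 179 TPM under lactic acid, 206, 76.1 and 207 TPM under 15% CO2, and 194, 225 and 205 TPM in controls. Rpl35 had 87.5, 101 and 231 TPM in low-NaHCO3 libraries, 190, 196 and 186 TPM under lactic acid, 156, 79.0 and 186 TPM under 15% CO2, and 189, 205 and 177 TPM in controls. Both were low in the same 3 libraries, low-NaHCO3 1 and 2 and 15% CO2 2, and level in the other 9. Neither passed in low-NaHCO3 medium against control, with log2 changes of −1.01 ± 0.42 and −0.58 ± 0.35, or −1.05 ± 0.46 and −0.58 ± 0.39 without control 1. Among the 3634 genes with a mean of at least 50 TPM, these 2 were the only ones lower in those 3 libraries than in the other 9 by a gap of at least 0.5 on the log2 scale, and no gene was higher by that gap. The pair was picked after its values were seen, and its cause was not tested.

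Some members were near their control level in low-NaHCO3 medium, with overlapping groups. The log2 changes were −0.11 ± 0.22 for Rpl38, −0.04 ± 0.23 for Rps27l, −0.03 ± 0.17 for Rpl19, 0.07 ± 0.17 for Rpl13a, 0.15 ± 0.19 for Rpl27 and 0.20 ± 0.25 for Rpl41. Without control 1 they lay between −0.16 and 0.02 except for Rps27l, at −0.29 ± 0.19, which then lay below both controls in every low-NaHCO3 library and did not pass (adjusted p = 0.204). Rpl38, known in mouse embryos for the translation of Hox mRNAs, had 581, 669 and 987 TPM in low-NaHCO3 libraries and 724, 819 and 810 TPM in controls. Rpl13a, which acts in an interferon-driven translation block in human myeloid cells, averaged 49.5 ± 11.9 TPM in low-NaHCO3 libraries and 46.3 ± 3.83 TPM in controls (SD, n = 3 each). In both the third low-NaHCO3 library was the highest of the 12.

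**Figure D4:**
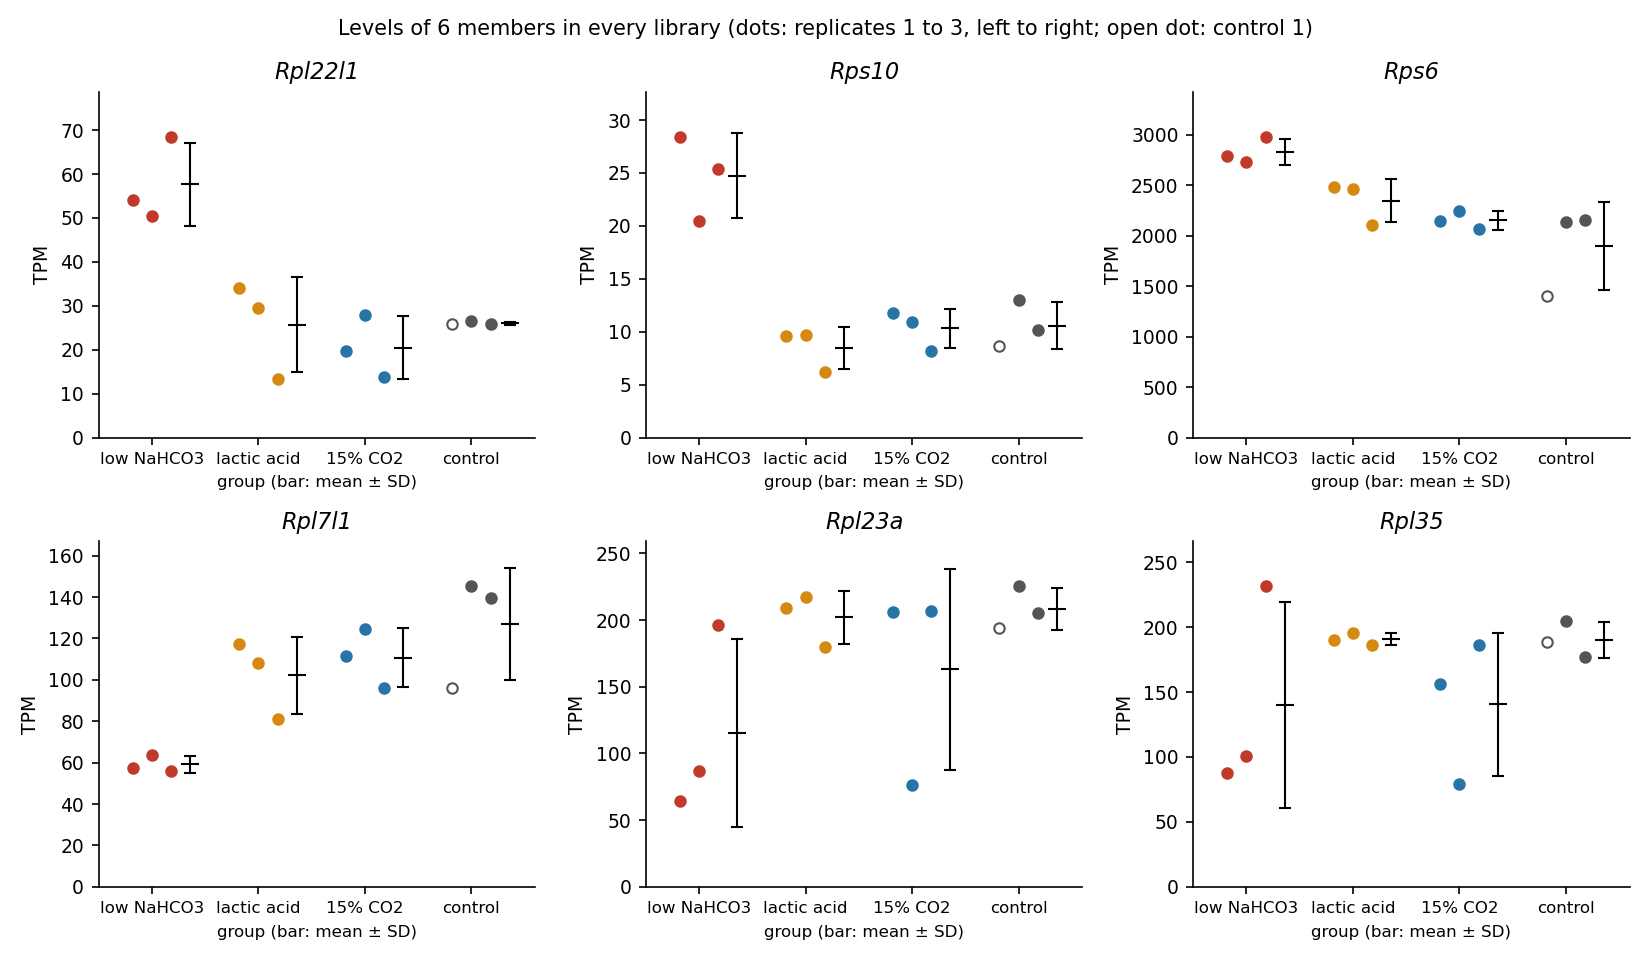
TPM of 6 members in every library by group. Dots are replicates 1 to 3 from left to right, the open dot is control 1, and bars are the mean ± SD of 3 libraries. Rpl22l1, Rps10 and Rps6 are highest in low-NaHCO3 medium, Rpl7l1 is lowest there, and Rpl23a and Rpl35 are low in low-NaHCO3 1 and 2 and in 15% CO2 2.

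Added lactic acid gave almost no calls in the family. Against control, none of the 82 members passed in the fit of 12 libraries, where 4.40% of all genes did, and 1 member had an unadjusted p under 0.05. The median log2 change was −0.01 (all genes −0.03). Without control 1 it was −0.19, and Rpl7l1 alone passed, falling by 0.49 ± 0.15 (adjusted p = 0.0425), against 16.6% of all genes in either direction. Leaving out lactic acid 3, whose members had a median deviation of −0.65 from their mean over the 12 libraries, gave a median change of 0.26 in place of −0.01. Rps26, a small subunit protein that contacts mRNA ahead of the start codon, was the 1 member with all lactic acid libraries above all controls, a state of 15.3% of all genes. It had 2180, 2229 and 2452 TPM with lactic acid and 1108, 1846 and 1913 TPM in controls, a log2 change of 0.53 ± 0.23 that did not pass (adjusted p = 0.199).

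Under 15% CO2 no member passed either, where 1.41% of all genes did, and 2 members, Rpl38 and Rpl19, had an unadjusted p under 0.05. The median log2 change was −0.07 (all genes 0.01). Without control 1 the median was −0.28 (all genes 0.03) and again none of 82 passed, against 7.62% of all genes. In that fit 77 of 82 changes were below 0, and 32 members had every 15% CO2 library below both controls, or 39.0%, against 19.5% of all genes. Members moved together between libraries, so these are not separate observations. The share of all genes below 0 is not set beside the 77. The lowest were Rps29 (−0.69 ± 0.37), Rps28 (−0.61 ± 0.28), Rps27l (−0.61 ± 0.19) and Rpl36 (−0.59 ± 0.34). Rps29, a small zinc-binding protein of the small subunit, had 534, 608 and 421 TPM under 15% CO2 and 792, 911 and 763 TPM in controls. The groups did not overlap, and its adjusted p of 0.256 without control 1 did not pass. With each library's trend with transcript length removed, the median was 0.02 in the fit of 12 libraries and −0.12 without control 1, where 16 members lay above 0. As a share of non-mitochondrial TPM, the summed members under 15% CO2 were 0.893 times those of controls 2 and 3 (exact p = 0.2, n = 3 and 2). That p is the one given by every comparison of this size without overlap of the groups.

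The 3 treatments were also set against each other, without the control libraries on either side. Against 15% CO2, 42 members rose in low-NaHCO3 medium, or 51.2%, against 18.1% of all genes, and 1 fell, against 34.6%. Against lactic acid, 36 rose, or 43.9%, against 18.3% of all genes, and 1 fell, against 31.7%. The median changes were 0.65 and 0.60, with −0.20 and −0.16 over all genes. Every low-NaHCO3 library lay above every 15% CO2 library for 74 members (26.0% of all genes) and above every lactic acid library for 63 members (27.1% of all genes). Lactic acid against 15% CO2 gave no call among 82 members, none with an unadjusted p under 0.05, against 0.333% of all genes. These comparisons share the low-NaHCO3 libraries, and the fit takes its spread from all 12.

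Rpl22l1, Rps10 and Rps16 were among the 5 largest rises in both pairs, which share the low-NaHCO3 libraries. Against 15% CO2 the largest rises were those of Rpl22l1 (1.49 ± 0.31, adjusted p = 0.00217), Rpl36al (1.32 ± 0.22), Rps10 (1.19 ± 0.20), Rpl36 (1.14 ± 0.33) and Rps16 (1.11 ± 0.32). Against lactic acid they were those of Rps10 (1.45 ± 0.20, adjusted p = 0.000189), Rpl22l1 (1.22 ± 0.31), Rps16 (1.06 ± 0.32), Rpl24 (1.04 ± 0.35) and Rps19 (1.01 ± 0.37). Of the genes in these rankings, Rpl36al, Rpl24 and Rps10 are tagged members, with means of 2.11, 3.53 and 13.5 TPM over 12 libraries. Whether lost reads bear on their changes was not tested. Rps16, a small subunit protein near the decoding centre, had 1160, 1234 and 1243 TPM in low-NaHCO3 libraries, 807, 709 and 342 TPM with lactic acid, and 554, 773 and 410 TPM under 15% CO2. Rpl7l1 was the 1 member that fell, by 0.89 ± 0.18 against 15% CO2 and by 0.76 ± 0.18 against lactic acid.

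These counts too rested on few libraries, and the share of all genes called in each fit is not set beside them. Against 15% CO2 the calls in both directions, 43 in the fit of 12 libraries, were 66 without control 1, 16 and 7 without 15% CO2 1 or 3, and 21, 18 and 14 without low-NaHCO3 1, 2 or 3. Against lactic acid the 37 calls became 6 without lactic acid 3 and 11, 11 and 10 without low-NaHCO3 1, 2 or 3. The median changes stayed between 0.54 and 0.74 against 15% CO2 and between 0.31 and 0.72 against lactic acid when any 1 library was left out.

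Other mRNAs known for the oligopyrimidine motif were mostly higher as well. Of 24 such genes listed, 22 were tested, and 16 rose (72.7%) and none fell in low-NaHCO3 medium against control (median 0.58), where 20.5% of all genes rose and 35.8% fell. The counts were the same without control 1 (median 0.43), where 23.1% of all genes rose and 41.5% fell. Eif3f, a subunit of the initiation factor eIF3, had 412, 420 and 414 TPM in low-NaHCO3 libraries and 184, 225 and 233 TPM in controls (log2 change 0.96 ± 0.13, or 0.86 ± 0.12 without control 1). Eif4a2, an RNA helicase of initiation, had 916, 880 and 899 TPM in low-NaHCO3 libraries and 513, 463 and 457 TPM in controls (0.91 ± 0.12, or 0.96 ± 0.12 without control 1). Eef2, the elongation factor that moves the ribosome along the mRNA, rose by 0.86 ± 0.21, and Tpt1, an abundant growth-linked protein, by 0.84 ± 0.20.

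Of 45 tested biogenesis factors, which assemble ribosomes without being part of them, 5 rose (11.1%) and 17 fell (37.8%) in low-NaHCO3 medium (median −0.18). The share that fell was near the 35.8% of all genes, and 20.5% of all genes rose. Without control 1, 5 rose and 27 fell (median −0.39), where 23.1% of all genes rose and 41.5% fell. Bop1, needed for maturation of large subunit RNA, averaged 40.3 TPM in low-NaHCO3 libraries and 86.4 TPM in controls (n = 3 each), and fell by 1.06 ± 0.14 on the log2 scale, or by 1.24 ± 0.08 without control 1. Rrs1, which helps to bring the 5S particle into the large subunit, fell by 0.95 ± 0.16, and Bysl, a small subunit factor, by 0.89 ± 0.13. Riok1, a kinase of late small subunit maturation, rose by 0.85 ± 0.10.

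The other treatments gave calls among the biogenesis factors only with control 1 left out, with 1 exception. Against controls 2 and 3, 21 of the 45 fell with lactic acid (46.7%), against 7.34% of all genes, and 15 fell under 15% CO2 (33.3%), against 1.63% of all genes. None rose in either, and the others of the 45 did not pass. In the fit of 12 libraries 1, Rrp12, fell with lactic acid and 0 of 45 passed under 15% CO2. Gar1, Ddx21 and Nop58, which act on pre-ribosomal RNA with small nucleolar RNAs or as a helicase, changed by −0.62 ± 0.15, −0.57 ± 0.11 and −0.54 ± 0.10 under 15% CO2, and by −0.60 ± 0.15, −0.62 ± 0.11 and −0.61 ± 0.10 with lactic acid, in the fit without control 1.

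**Figure D5:**
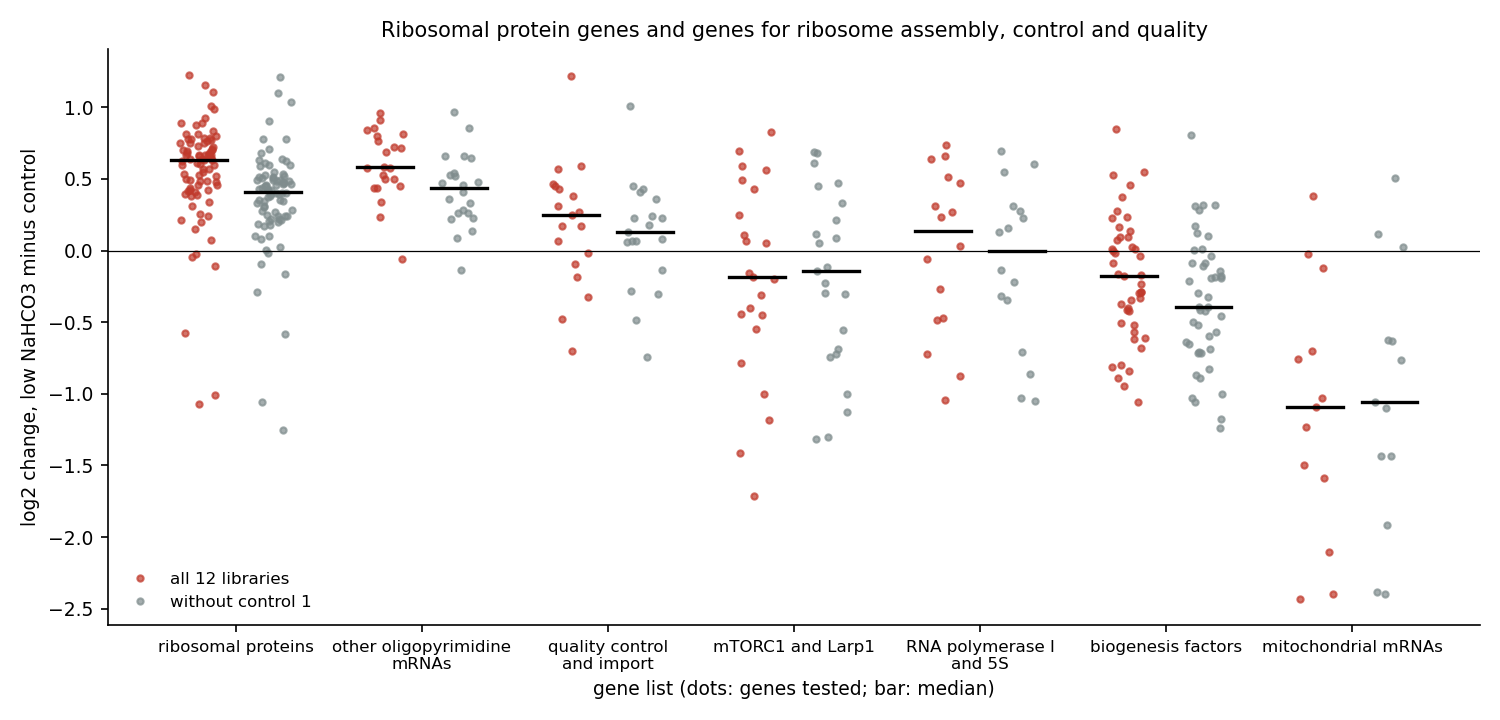
Log2 change of every gene tested in low-NaHCO3 medium minus control, for the 82 ribosomal protein genes and 6 lists of related genes. Red dots come from all 12 libraries, grey dots from the fit without control 1, and bars are medians. Ribosomal proteins and other oligopyrimidine mRNAs lie mostly above 0, with medians of 0.63 and 0.58 in the fit of 12 libraries, while biogenesis factors (−0.18) and mitochondrial mRNAs (−1.09) lie mostly below.

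Of 16 genes for RNA polymerase I and 5S transcription, which make ribosomal RNA, 4 rose and 5 fell in low-NaHCO3 medium (median 0.13), near the 20.5% and 35.8% of all genes. Without control 1, 2 rose and 6 fell, where 23.1% and 41.5% of all genes did. Ubtf, the architectural factor of ribosomal DNA, had 46.9, 49.4 and 47.9 TPM in low-NaHCO3 libraries, 73.6, 76.3 and 70.6 TPM with lactic acid, 93.7, 97.1 and 87.3 TPM under 15% CO2, and 101, 101 and 97.9 TPM in controls. It fell by 1.04 ± 0.07 in low-NaHCO3 medium and by 0.44 ± 0.07 with lactic acid, or by 1.03 ± 0.07 and 0.43 ± 0.07 without control 1, and its controls, control 1 among them, differed little. Polr1a, the largest subunit of the polymerase, fell by 0.72 ± 0.11, and Gtf3a, which binds the 5S gene and its RNA, by 0.88 ± 0.18, while Taf1d, a partner of the promoter selectivity factor, rose by 0.74 ± 0.14.

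Of 23 genes of mTORC1, Larp1 and their control, 5 rose and 9 fell in low-NaHCO3 medium (median −0.19), and 6 rose and 10 fell without control 1, not far from the shares of all genes. The largest changes were falls. Deptor, an inhibitor bound to mTOR, fell by 1.71 ± 0.27, with 3.08, 3.78 and 2.89 TPM in low-NaHCO3 libraries and 23.2, 9.90 and 9.14 TPM in controls, or by 1.31 ± 0.13 without control 1. Mlst8, a core subunit, fell by 1.41 ± 0.13 (1.30 ± 0.11 without control 1), Ddit4, a stress-induced inhibitor of the pathway, by 1.18 ± 0.23, and Akt1s1, another bound inhibitor, had 16.2, 19.5 and 19.1 TPM in low-NaHCO3 libraries and 31.5, 39.9 and 42.1 TPM in controls. These are mRNA levels and say nothing of the activity of the kinase.

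Among 19 tested genes for ribosome quality control and for the nuclear transport of ribosomal proteins, 7 rose (36.8%) and 3 fell (15.8%, median 0.25), where 20.5% of all genes rose and 35.8% fell. Without control 1, 8 rose (42.1%) and 3 fell, where 23.1% and 41.5% of all genes did. Ipo7 and Ipo5, importins that carry ribosomal proteins into the nucleus, rose by 1.22 ± 0.16 and 0.57 ± 0.13, or by 1.01 ± 0.09 and 0.41 ± 0.08 without control 1. Ipo7 had 499, 480 and 471 TPM in low-NaHCO3 libraries and 154, 244 and 234 TPM in controls. Of the rescue factors for stalled ribosomes, Hbs1l rose by 0.59 ± 0.16, and its partner Pelo, at 1.85 TPM or less in every library, fell by 0.70 ± 0.24. Of the 13 mitochondrially encoded mRNAs none rose and 8 fell (61.5%, median −1.09), where 35.8% of all genes fell, and 8 also fell without control 1 (median −1.06), where 41.5% did. The furthest was mt-Nd1, a subunit of respiratory complex I, at −2.43 ± 0.41, or −2.40 ± 0.33 without control 1.

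Transcript length moved with some of these values. Ribosomal protein mRNAs are short, with a median of 764 bases among the members in GENCODE M21. In low-NaHCO3 medium against control, the 41 members with longer transcripts had a median change of 0.67 and the 41 with shorter ones 0.53, and across the 82 genes, which share libraries, the Spearman correlation of change with length was 0.27. Under 15% CO2 these medians were 0.01 and −0.18 with a correlation of 0.59, and with lactic acid 0.06 and −0.10 with a correlation of 0.54. Without control 1 the correlations were 0.21 in low-NaHCO3 medium, 0.54 under 15% CO2 and 0.44 with lactic acid. Among genes of at least 50 TPM the deviation of a library from the mean ran with length most strongly in lactic acid 3 (Spearman 0.43) and 15% CO2 3 (0.34), and against it in controls 2 and 3 (−0.28 and −0.24). With each library's trend with length removed, 67 members rose (81.7%) and 1 fell in low-NaHCO3 medium, with a median of 0.70, where 29.7% of all genes rose and 27.4% fell, with a median of −0.02. Without control 1, 62 rose (75.6%) and 2 fell, with a median of 0.54, where 34.6% of all genes rose and 32.3% fell, with a median of 0.01.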

How the data were processed

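RNA of 12 libraries in 4 groups was sequenced by the authors. They trimmed reads with fastp 0.22.0 and aligned them with HISAT2 2.1.0 to GRCm39, per the submitters' processing notes. The deposited table holds TPM for 21959 genes by Ensembl ID, already divided by length and library size. How reads were counted, with which annotation and on which strand, is not given in the sources used here, so depth is unknown and no counting interval can be given. Symbols and lengths came from GENCODE M21 (GRCm38), which named 21851 IDs.

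Log2(TPM + 1) of 11996 genes that reached 1 TPM in 3 libraries of any group (12023 without control 1) was fitted in limma 3.58.1 (R 4.3.3), with group means, a variance trend and Benjamini-Hochberg adjustment over all genes at 0.05. A change on this scale understates that of low genes. A SE beside a change is that of the fit. Sums and ratios were compared by exact permutation. The fit was also run on simulated data with independent noise for each gene. That setting holds neither members that move together nor libraries that stand apart, so it does not bear on the counts of members. The text names the 5 highest and 5 lowest called changes per comparison among members whose groups did not overlap, the 5 highest and 5 lowest levels, the role and paralog lists, and up to 4 genes per other list. Genes outside this rule were picked after their values were seen, namely Rps26, Rps28, Rps29, Rpl23a, Rpl35, Rpl19, Rpl27, Rpl38, Rpl41, Gar1, Ddx21, Nop58 and Rrp12. The members, lists and rules were chosen with earlier results of these data known. Alternatives covered pseudocount, filter, scaling, transcript length, replicate block and libraries left out.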

Additional observations from a re-analysis of the deposited data

How the results depend on the processing

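Counts here are members called in either direction, and most stand without the share of all genes called under the same setting. That share moved as well. In low-NaHCO3 medium against control 20.5% of all genes rose and 35.8% fell, and with the length trend removed 29.7% and 27.4%. The counts therefore show how far calling depends on the processing and are not a result about the family. In low-NaHCO3 medium against control (38 in all 12 libraries), 15% CO2 (43) and lactic acid (37), testing without a filter on low TPM gave 13, 12 and 6 calls at the same medians, and median-of-ratios scaling gave 65, 76 and 64. Quantile normalization gave 22, 18 and 17 calls, with medians of 0.29, 0.30 and 0.24, and 3 calls for lactic acid against control. With the length trend removed there were 68 against control and 67 against 15% CO2, and fitting the 2 groups alone gave 77 against 15% CO2. The cause of these differences was not tested. A pseudocount of 0.1, a filter at 5 TPM, rescaling without mitochondrial genes and robust variances gave 34 to 45 calls in these comparisons.

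With control 1 out, median-of-ratios scaling gave 79 calls for low-NaHCO3 medium against 15% CO2, 74 against lactic acid, 2 for 15% CO2 against control and 1 for lactic acid against control. With control 1 out and the length trend removed, low-NaHCO3 medium had 64 calls against control, 77 against 15% CO2 and 68 against lactic acid, and 15% CO2 and lactic acid had 2 each against control. With control 1, 15% CO2 3 and lactic acid 3 all out, low-NaHCO3 medium had 68 calls against control and 76 against 15% CO2, 15% CO2 had 8 and lactic acid 4 against control, and lactic acid had 2 against 15% CO2.

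Leaving out 1 library, or control 1 with 1 other, gave 6 to 57 calls for low-NaHCO3 medium against control, 7 to 78 against 15% CO2 and 6 to 66 against lactic acid. The lowest of these against control, 8 and 6, left 1 control, which was then assumed to vary like the other groups. For 15% CO2 against control there were 0 to 12 calls with medians of −0.395 to 0.0835, for lactic acid against control 0 to 1 with medians of −0.36 to 0.26, and for lactic acid against 15% CO2 0 to 5. The median change in low-NaHCO3 medium against control lay between 0.39 and 0.74 in these fits. It could not fall below 0 by leaving libraries out, since every low-NaHCO3 library lay above every control for 68 of 82 members. Of 2314 values of called members named in the text under an alternative, 1953 stayed called, 361 did not pass and 0 changed sign. They come from 61 pairs of member and comparison under alternatives that share libraries, so they are not separate checks. Members called in the fit of 12 libraries had groups that did not overlap, so leaving libraries out could not change a sign.

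Same-numbered libraries of 2 groups had deviations from their group means that correlated at −0.15 to 0.49. The highest values, 0.49 and 0.35, were those of replicates 3 and 2 of 15% CO2 and lactic acid. Libraries of unlike number were not compared, so whether replicate numbers pair the libraries was not tested. A replicate block gave 35 calls in low-NaHCO3 medium against control, 41 against 15% CO2 and 35 against lactic acid. With control 1 out and a replicate block there were 19, 67 and 58, and 1 for lactic acid against control.

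The table gives shares without depth, so neither counting error nor absolute amounts can be given. Groups of 3 libraries from 1 cell line, of which 3 libraries stood apart, limit every count of calls. Treatment cannot be told apart from any culture or handling difference that the labels do not record.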
